A study of Danio rerio with 16 samples.

Results

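Transcript levels were compared between zebrafish (Danio rerio) larvae exposed to 1 µg/L perfluorobutanoic acid (PFBA), a short-chain perfluoroalkyl acid, and larvae given the solvent control. The comparison takes 8 of the 16 libraries of the study, chosen by the exposure in their labels: 4 libraries at 1 µg/L PFBA and 4 control libraries. All larvae were 7 days old after 7 days of exposure. The series design names the solvent as dimethyl sulfoxide (DMSO). The remaining libraries held 0.1 µg/L (n = 3) and 10 µg/L PFBA (n = 5) and entered the same fit. No mutation, transgene or further treatment is given for any group. How many larvae went into a sample, and whether samples came from separate tanks or clutches, is not stated, and p-values measure the spread between these samples. Neither the light schedule nor the hour of collection is given. Libraries are named by the number in the deposited column, which is 1, 2, 4 and 5 at 1 µg/L and 1, 3, 4 and 5 in the control.

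Of 19092 genes tested, 13 (0.0681%) were called at 1 µg/L, at an adjusted p below 0.05 in edgeR's quasi-likelihood test. The 3 genes that rose (0.0157%) were per2, cry3b and guca1e, and the 10 genes that fell (0.0524%) were egr4, fosab, npas4a, nr4a1, klf2a, btg2, ccn1, dusp6, sec23b and rhcga. Most genes that fell belong to the immediate early response, and those that rose belong to the light-set clock and to photoreceptor signalling. All 13 are protein-coding, and in each the exposed and control libraries did not overlap, which held for 5.45% of all genes tested. At an unadjusted p under 0.05 stood 934 genes (4.89%), of which 367 (1.92%) were higher and 567 (2.97%) lower at 1 µg/L. The median log2 fold change over all genes tested was -0.02.

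As background, immediate early genes are transcribed within minutes of a stimulus, such as firing of a neuron, a growth factor or mechanical stress, without new protein synthesis. Their first products are transcription factors of the Fos, Jun, Egr, Nr4a and Npas4 families, followed by effectors that damp the signal, among them the dual specificity phosphatases. The zebrafish clock runs in most tissues: Clock and Bmal1 activate per, cry and nr1d genes, whose products repress them in turn. Light resets it directly in zebrafish cells by inducing per2 and some cryptochrome and photolyase genes.

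Total counts ran from 10503631 to 12461311 reads in the exposed libraries and from 11353254 to 13735339 in the control. Genes with at least 1 read numbered 21971 to 22151 in the exposed libraries and 22352 to 22975 in the control. Fixed organ markers were summed for the labelled whole larva. The sums of neuron, photoreceptor, muscle, lens, liver, pancreas, intestine, heart and epidermis were above 0 in each library. The 1 ovary and yolk marker matched was above 0 too, at 0.398 to 1.61 CPM in the exposed libraries and 0.371 to 2.25 CPM in the control. A sum above 0 is therefore no test of the label. Some organ sums varied widely within both groups. Epidermis markers summed to 1367 to 4298 CPM in the exposed libraries, against 733 to 3619 CPM in the control, and liver markers to 373 to 748 CPM against 185 to 1213 CPM. The 2 erythroid markers matched, alas2 and slc4a1a, summed to 0.85 to 2.78 CPM in the exposed libraries and 3.25 to 5.56 CPM in the control. The globin hbae3, which is not among the fixed markers, was at 57.3 to 103 CPM in the exposed libraries and 31.9 to 102 CPM in the control. Its groups overlapped. Of 17 tested erythroid and globin genes, 11 had a negative and 6 a positive log2 fold change, and 0 were called. The part of these markers in the results was not tested. CPM is a read count scaled to a common library size. Libraries 1 and 2 at 0.1 µg/L stood apart with scaling factors of 0.58 and 0.74, against 1.01 to 1.08 at 1 µg/L and 1.05 to 1.12 in the control.

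Library 5 at 1 µg/L stood apart from libraries 1, 2 and 4 of its group in a set of clock-linked genes, where it lay at or near the level of the control. It was singled out after its values were seen, so values are given with and without it below. Leaving out a library for its values narrows the spread within its group in those same genes. Adjusted p-values and counts without library 5 are therefore descriptions and not valid tests. Without it 105 of 19026 genes (0.552%) were called, 18 higher (0.0946%) and 87 lower (0.457%), including all 13. Leaving out any other single library of the compared groups gave 5 to 8 calls.

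**Figure D1:**
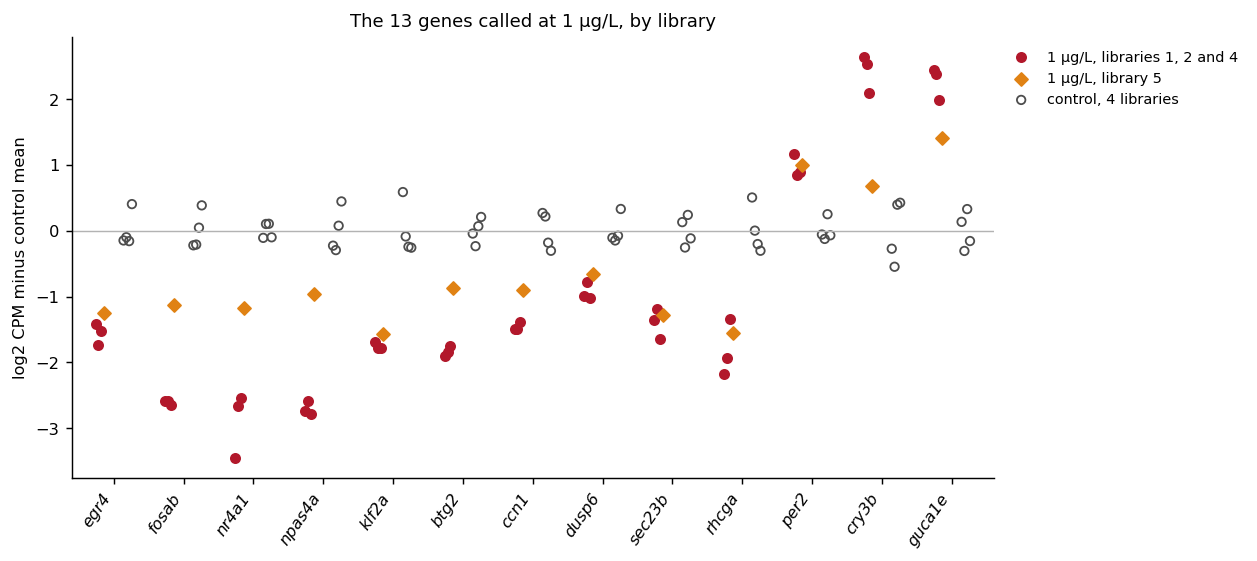
Each point is 1 library; the vertical axis is its log2 CPM minus the mean log2 CPM of the 4 control libraries. Filled circles are libraries 1, 2 and 4 at 1 µg/L, diamonds library 5 at 1 µg/L and open circles the control, and in all 13 genes the exposed and control points do not overlap.

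The immediate early transcription factors gave 5 of the 10 lower calls. egr4, an early growth response zinc finger factor, was at 48.5, 38.9, 45.1 and 54.3 CPM in exposed libraries 1, 2, 4 and 5, against 117, 121, 116 and 171 CPM in control libraries 1, 3, 4 and 5. Every exposed library lay below every control library, and library 5 lay close to its group. egr4 fell 2.80-fold (log2 fold change -1.49, SE 0.15, adjusted p = 0.000263 by edgeR). It kept its call in all 20 alternative settings.

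fosab, a zebrafish orthologue of c-Fos and a subunit of AP-1, was at 20.6, 20.5, 19.8 and 56.6 CPM in the exposed libraries, against 106, 107, 127 and 161 CPM in the control. Libraries 1, 2 and 4 were nearly equal, and library 5 lay between them and the control. fosab fell 4.26-fold (log2 fold change -2.09, SE 0.29, adjusted p = 0.00561 by edgeR), and 6.17-fold without library 5. npas4a, a factor induced by neuronal activity, showed the same order of libraries. It was at 45.5, 50.6, 43.9 and 155 CPM in the exposed libraries and 259, 247, 320 and 413 CPM in the control. It fell 4.20-fold (log2 fold change -2.07, SE 0.34, adjusted p = 0.0292 by edgeR), and 6.64-fold without library 5. This call was lost in 7 of 8 fits with 1 library left out, with adjusted p-values up to 0.204.

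nr4a1, an orphan nuclear receptor known as Nur77 in mammals, was at 4.65, 8.03, 8.75 and 22.5 CPM in the exposed libraries, against 47.0, 54.4, 54.5 and 47.3 CPM in the control. The control libraries were tight, and library 5 again lay nearest to them. nr4a1 fell 4.62-fold (log2 fold change -2.21, SE 0.33, adjusted p = 0.0126 by edgeR), and without library 5 its log2 fold change was -2.83 (3.22e-06). Its call held in 4 of 8 fits with 1 library left out, with a highest adjusted p of 0.108. klf2a, a Krüppel-like factor known in zebrafish for its induction by blood flow in endothelium, was at 3.80, 3.59, 3.58 and 4.16 CPM in the exposed libraries. In the control it was at 18.5, 11.6, 10.4 and 10.3 CPM. Here library 5 sat with its own group, and the spread lay in control library 1. klf2a fell 3.34-fold (log2 fold change -1.74, SE 0.31, adjusted p = 0.0456 by edgeR), and this call was lost in 7 of 8 fits with 1 library left out, up to 0.273.

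Among effectors, btg2, a growth-arrest protein that recruits the mRNA deadenylation machinery, was at 60.4, 62.7, 67.0 and 123 CPM in the exposed libraries, against 218, 191, 236 and 260 CPM in the control. Library 5 was about midway between the groups. btg2 fell 2.89-fold (log2 fold change -1.53, SE 0.21, adjusted p = 0.00561 by edgeR) and kept its call in all 8 fits with 1 library left out. ccn1, a secreted matricellular protein and a target of YAP, was at 12.2, 12.2, 13.0 and 18.4 CPM in the exposed libraries, against 41.2, 39.7, 30.2 and 27.7 CPM in the control. It fell 2.49-fold (log2 fold change -1.31, SE 0.22, adjusted p = 0.0312 by edgeR). The call was kept in 2 of 8 such fits, with adjusted p-values up to 0.209.

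dusp6, the phosphatase that switches off ERK in the cytoplasm, was at 38.0, 44.1, 37.1 and 48.0 CPM in the exposed libraries, against 70.2, 68.2, 71.7 and 95.0 CPM in the control. Its fall was the smallest among the 13 called genes, 1.83-fold (log2 fold change -0.87, SE 0.15, adjusted p = 0.0379 by edgeR). It was lost in 7 of 8 fits with 1 library left out, up to 0.256. dusp1, a phosphatase of nuclear MAP kinases, did not pass. It was at 48.3, 46.0, 61.9 and 53.2 CPM in the exposed libraries, against 101, 85.2, 86.5 and 79.5 CPM in the control, without overlap (log2 fold change -0.75, edgeR adjusted p = 0.0716). In both phosphatase genes library 5 lay with its group.

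The gene lists, here and below, were chosen with earlier results of these data known. Shares of list members beside those of all genes are therefore descriptions and not tests of enrichment. Across the 2 immediate early lists, 7 of 59 tested members fell and 0 rose, beside the 0.0524% lower and 0.0157% higher calls over all genes. At an unadjusted p below 0.05, 30 were lower and 0 higher, beside 2.97% lower and 1.92% higher over all genes. The median log2 fold change was -0.51, against -0.02 over all genes, and 43 members had a negative value. Without library 5, 17 of 58 members fell and 0 rose, with a median of -0.77, beside 0.457% lower calls over all genes. The members that passed only without library 5 were fosl1a, junbb and jund, which encode AP-1 subunits, with ier2a, dusp1, dusp5, sik1, mcl1b, pim1 and socs3a. sik1, a salt-inducible kinase, was at 77.5, 68.9, 71.1 and 163 CPM in the exposed libraries, against 183, 169, 202 and 211 CPM in the control (log2 fold change -1.01, edgeR adjusted p = 0.564). Library 5 lay just below the control range and far from the other exposed libraries. junbb was at 46.4, 48.4, 47.3 and 79.4 CPM in the exposed libraries, against 91.0, 94.2, 103 and 149 CPM in the control (log2 fold change -0.98, edgeR adjusted p = 0.240). The groups did not overlap in junbb.

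Of 16 tested genes of the ERK feedback list, 1 fell, dusp6, and 4 fell without library 5, where spry4 and dusp5 joined both phosphatases named above. The list median was -0.05. For this list and the next 2, the share of all genes that fell was 0.0524%, and 0.457% without library 5. Of 5 tested genes of the BTG and TOB family, btg2 fell, and tob1a passed without library 5 but not in the main edgeR fit. tob1a, an antiproliferative relative of btg2, was at 190.3, 178, 161 and 417 CPM in the exposed libraries, against 365, 379, 487 and 526 CPM in the control. Its library 5 lay inside the control range. Of 18 flow- and YAP-responsive genes, klf2a and ccn1 fell and the list median was -0.19.

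Of the genes that rose, per2, a period repressor induced by light in zebrafish, was at 279, 223, 232 and 251 CPM in the exposed libraries, against 120.0, 115, 149 and 119 CPM in the control. All exposed libraries, library 5 included, lay above every control library. per2 rose 1.96-fold (log2 fold change 0.97, SE 0.13, adjusted p = 0.00528 by edgeR) and kept its call in all 8 fits with 1 library left out. With library size only in place of scaling factors its adjusted p was 0.228. cry3b, a cryptochrome gene, was at 330.1, 309, 226 and 85.2 CPM in the exposed libraries, against 44.0, 36.4, 70.0 and 71.4 CPM in the control. Library 5 lay just above the highest control library. cry3b rose 4.28-fold (log2 fold change 2.10, SE 0.36, adjusted p = 0.0379 by edgeR), a call lost in 7 of 8 fits with 1 library left out, up to 0.266.

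Of 21 tested genes of the light-induced and DNA repair list, per2 and cry3b rose and 0 fell, and at an unadjusted p below 0.05, 7 were higher and 1 lower. Over all genes 0.0157% rose and 0.0524% fell, and 1.92% were higher and 2.97% lower at an unadjusted p below 0.05. The list median was 0.18, against -0.02 over all genes. cry5, which encodes the zebrafish (6-4) photolyase, was at 25.6, 26.2, 24.6 and 18.0 CPM in the exposed libraries, against 12.7, 10.3, 12.7 and 10.4 CPM in the control. It did not pass (log2 fold change 1.03, SE 0.21, adjusted p = 0.126 by edgeR), although the groups did not overlap, and it passed without library 5 (0.0180). xpc, which recognises DNA damage for nucleotide excision repair, was at 32.2, 38.6, 34.4 and 18.2 CPM in the exposed libraries, against 15.7, 17.0, 18.1 and 16.5 CPM in the control. Its library 5 lay just above the highest control library. It passed without library 5 (log2 fold change 1.06, edgeR adjusted p = 0.00801). The gene of the cyclobutane dimer photolyase, cpdp, was picked after its values were seen and was at 62.3, 65.8, 62.2 and 43.4 CPM in the exposed libraries, against 34.3, 35.4, 42.4 and 38.7 CPM in the control (edgeR adjusted p = 0.240, and 0.0151 without library 5).

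guca1e, a guanylate cyclase activator of photoreceptors, was at 79.9, 76.8, 58.7 and 39.4 CPM in the exposed libraries, against 16.2, 11.9, 18.5 and 13.3 CPM in the control. Library 5 was the lowest exposed library and lay above all of the control. guca1e rose 4.24-fold (log2 fold change 2.09, SE 0.34, adjusted p = 0.0274 by edgeR). This call was lost in 7 of 8 fits with 1 library left out, with adjusted p-values up to 0.134, and with library size only (0.228). Of 48 tested phototransduction genes it was the only one called, and at an unadjusted p below 0.05, 4 were higher and 6 lower, beside 0.0681% called, 1.92% higher and 2.97% lower over all genes. The list median was -0.17, and the summed level of the list was 16530 to 22573 CPM in the exposed libraries, against 15648 to 24225 CPM in the control. In whole larvae, fewer cells of a type and less RNA per cell cannot be told apart.

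Other guanylate cyclase activator genes did not go the way of guca1e. guca1c was at 15.6, 16.5, 10.3 and 110 CPM in the exposed libraries, against 69.3, 58.8, 95.4 and 88.2 CPM in the control. Library 5 lay above the whole control range and the other exposed libraries far under it. With library 5 guca1c did not pass (log2 fold change -1.03, edgeR adjusted p = 0.998), and without it guca1c was at -2.46 (9.54e-05). guca1a was at -1.09 (edgeR adjusted p = 0.985), and at -1.89 without library 5 (0.0270). grk7a, the cone opsin kinase, was at 163, 200.1, 139 and 659 CPM in the exposed libraries, against 386, 475, 631 and 439.7 CPM in the control. cnga3a, a subunit of the cone cyclic nucleotide-gated channel, was at 15.5, 15.4, 13.0 and 33.9 CPM in the exposed libraries, against 42.6, 34.3, 49.9 and 46.1 CPM in the control. pde6ga, the rod phosphodiesterase inhibitor, was the fifth phototransduction gene that fell without library 5 (log2 fold change -1.54, edgeR adjusted p = 0.0144).

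2 of the called genes belong to other groups. sec23b, an inner coat subunit of the COPII vesicles that leave the endoplasmic reticulum, was at 21.2, 23.8, 17.4 and 22.3 CPM in the exposed libraries, against 59.5, 45.5, 64.2 and 50.1 CPM in the control. Library 5 sat inside its group. sec23b fell 2.59-fold (log2 fold change -1.37, SE 0.17, adjusted p = 0.00299 by edgeR) and kept its call in all 20 alternative settings. Of 34 tested COPII and endoplasmic reticulum stress genes no other was called, beside 0.0524% lower calls over all genes. The list median was -0.03.

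rhcga, an Rh family ammonium transporter, was at 9.85, 11.6, 17.7 and 15.2 CPM in the exposed libraries, against 63.2, 44.6, 38.7 and 36.1 CPM in the control. Library 5 again lay with its group. rhcga fell 3.35-fold (log2 fold change -1.75, SE 0.29, adjusted p = 0.0292 by edgeR), with a call kept in 2 of 8 fits with 1 library left out, up to 0.209. Of 33 tested ammonium transport and ionocyte genes it was the only one called, beside 0.0524% lower calls over all genes. The list median was -0.08. The prolactin receptor gene prlra passed without library 5 (log2 fold change -1.85, edgeR adjusted p = 0.0340) but not in the main edgeR fit.

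The 10 genes with the next lowest p did not pass in the main edgeR fit. aanat2, which makes the melatonin precursor at night in the pineal organ, came first. It was at 18.7, 17.6, 15.0 and 8.64 CPM in the exposed libraries, against 4.56, 4.89, 6.78 and 5.54 CPM in the control (log2 fold change 1.46, SE 0.27, adjusted p = 0.0655 by edgeR). The groups did not overlap, and library 5 lay nearest to the control. mych, a Myc family gene, was at 52.1, 38.7, 66.3 and 135 CPM in the exposed libraries, against 228, 231, 198 and 178 CPM in the control (edgeR adjusted p = 0.0761). Without library 5 mych fell (log2 fold change -1.99, edgeR adjusted p = 9.54e-05), and aanat2 rose (1.65, 0.00316). The mitochondrial carrier gene slc25a25a, the receptor gene gpr186 and the dehydrogenase gene dhrs13a.2 were at log2 fold changes of -1.70, -1.86 and -2.74, each with an edgeR adjusted p of 0.132. Without library 5 all 3 fell, slc25a25a at -2.01 (edgeR adjusted p = 0.0151), gpr186 at -2.53 (0.000388) and dhrs13a.2 at -4.07 (7.17e-05). hmgb1a, a chromatin protein gene, was at 382, 417, 393 and 418 CPM in the exposed libraries, against 237, 259, 194 and 249 CPM in the control. It had no overlap, and its log2 fold change of 0.78 had an edgeR adjusted p of 0.132. CR926130.2 was at -2.24 (edgeR adjusted p = 0.113) and CABZ01117503.1 at 0.393 to 1.78 CPM in the exposed libraries, against 0 to 0.138 CPM in the control. Without library 5 CABZ01117503.1 rose (edgeR adjusted p = 0.0152), while hmgb1a (0.0831) and CR926130.2 (0.0577) did not pass. The remaining 2 of the 10, dusp1 and cry5, are described above. In the authors' deposited table hmgb1a (adjusted p = 9.08e-06), cry5 (0.000122), aanat2 (0.000233) and gpr186 (0.000403) were below 0.05. So were CR926130.2 (0.000627), slc25a25a (0.000901), dusp1 (0.00129) and mych (0.00192), while dhrs13a.2 (0.0692) and CABZ01117503.1 were not. By DESeq2 with all libraries dhrs13a.2 passed (DESeq2 adjusted p = 0.000716).

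**Figure D2:**
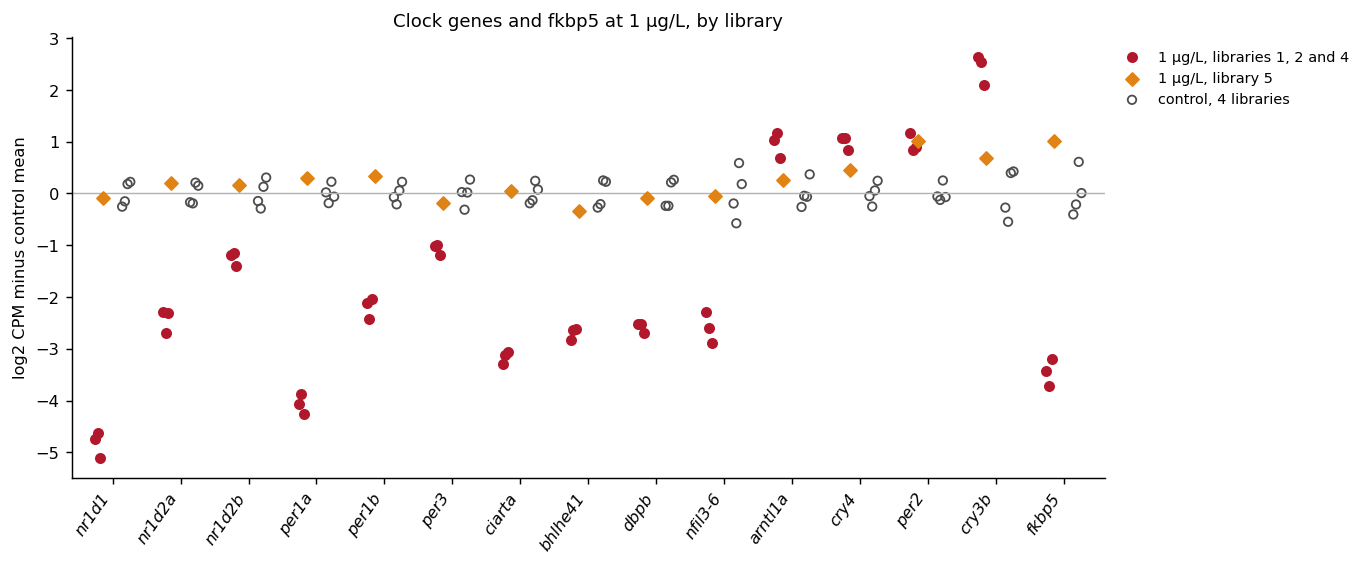
Each point is 1 library; the vertical axis is log2 CPM minus the mean log2 CPM of the control libraries. In nr1d1, per1a, ciarta and fkbp5 the diamonds of library 5 lie at or above the control points while the circles of libraries 1, 2 and 4 lie far below, and in per2 the diamond lies among the circles.

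In many clock genes library 5 at 1 µg/L lay within or near the control range while libraries 1, 2 and 4 lay far from it. per2 went against this order, and cry3b, cry4 and bhlhe41 had library 5 beyond the control range on the side of the other exposed libraries. nr1d1, which encodes the repressor Rev-erb alpha, was at 24.3, 26.5, 19 and 617 CPM in exposed libraries 1, 2, 4 and 5, against 547, 588, 741 and 762 CPM in the control. Library 5 lay inside the control range. With all libraries nr1d1 did not pass (log2 fold change -1.94, SE 0.81, adjusted p = 0.985 by edgeR). Without library 5 it was 28.4-fold lower (log2 fold change -4.83, edgeR adjusted p = 5.79e-08). per1a, a period gene, was at 4.42, 5.10, 3.90 and 91.7 CPM in the exposed libraries, against 75.5, 65.3, 87.0 and 71.2 CPM in the control. Its library 5 lay above every control library. Its edgeR adjusted p was 0.998 with library 5 and 0.00110 without it.

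Other repressors showed the same order of libraries. ciarta, a repressor of Clock and Bmal1, was at 27.4, 30.9, 32.0 and 276 CPM in the exposed libraries, against 236, 246, 318 and 283 CPM in the control. bhlhe41, a basic helix-loop-helix repressor, was at 18.0, 20.5, 20.7 and 100.1 CPM in the exposed libraries, against 105, 110.3, 152 and 149 CPM in the control. In bhlhe41 library 5 lay just under the control range. Of 19 tested genes of the clock repressor list, 2 rose and 0 fell with all libraries, and 3 rose and 8 fell without library 5. Whether each member acts as a repressor was not tested. Over all genes 0.0157% rose and 0.0524% fell with all libraries, and 0.0946% rose and 0.457% fell without library 5. The list median was -0.69 with library 5 and -1.16 without it. The 3 that rose were per2, cry3b and cry4, and the 8 that fell were per1a, per1b, per3, nr1d1, nr1d2a, nr1d2b, ciarta and bhlhe41.

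Of 8 tested clock activator and ROR receptor genes, 0 were called with all libraries, and arntl1a, which encodes Bmal1, rose without library 5. It was at 67.7, 74.6, 53.8 and 39.7 CPM in the exposed libraries, against 27.7, 32.2, 31.8 and 42.9 CPM in the control. Library 5 lay below the highest control library. Without it the log2 fold change was 0.96 (edgeR adjusted p = 0.0202). rorcb, a ROR receptor gene, was at 167, 208, 122 and 94.9 CPM in the exposed libraries, against 47.1, 37.8, 55.9 and 86.3 CPM in the control, and did not pass with library 5 (edgeR adjusted p = 0.544) or without it (0.188). Among output genes, dbpb, a PAR bZIP factor, and nfil3-6, of the NFIL3 repressor family, fell without library 5 and aanat2 rose. dbpb was at 19.3, 19.2, 17.0 and 104 CPM in the exposed libraries, against 93.7, 93.7, 128 and 133 CPM in the control.

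fkbp5, an Hsp90 co-chaperone induced by glucocorticoids, was at 20.2, 16.6, 23.6 and 438 CPM in the exposed libraries, against 165, 188, 333 and 219 CPM in the control. Library 5 lay above every control library and the other exposed libraries far below. The log2 fold change was -0.86 (edgeR adjusted p = 0.998), and -3.49 without library 5 (1.47e-06). ddit4, an inhibitor of mTORC1 signalling, was at 54.1, 47.7, 58.4 and 118 CPM in the exposed libraries, against 109, 129, 151 and 134 CPM in the control. Of 21 tested glucocorticoid axis and response genes, 0 were called with library 5 and 3 fell without it, fkbp5, ddit4 and per1a, and per1a is also a clock repressor. Over all genes 0.457% fell without library 5. The list median was -0.45 with library 5 and -0.64 without it.

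Library 5 was singled out by its values, so the fit without it is not independent of them. Its position was set out for the 105 genes called in that fit, which did not use its values. Library 5 deviated from the control mean in the direction of libraries 1, 2 and 4 in 66 of these genes (62.9%), against 57.9% over all genes. The control mean is shared by both differences. Library 5 lay beyond the control range on that side in 43 genes (41.0%), against 23.2% over all genes. In 47 genes (44.8%) it lay within the control range, against 65.1% over all genes. The remaining 15 lay beyond it on the other side, and the matching share of all genes is what the shares above leave. The 105 genes were picked by a test against these same control libraries, which favours genes with a narrow control range. A share outside that range can therefore differ from the share over all genes for any further library, and no conclusion on library 5 is drawn from it. The median position was 0.09, where 0 is the control mean and 1 the mean of libraries 1, 2 and 4. No share over all genes was computed for this position. The 105 genes were picked for the shift of libraries 1, 2 and 4, which favours a position below 1 for any library left out. No conclusion on library 5 is drawn from the position either. Past 0.5 lay 11 genes. These 11 were per2, dusp1, sec23b, klf2a, rhcga, egr4, dusp6, guca1e, ccn1, cry5 and CABZ01117503.1.

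**Figure D3:**
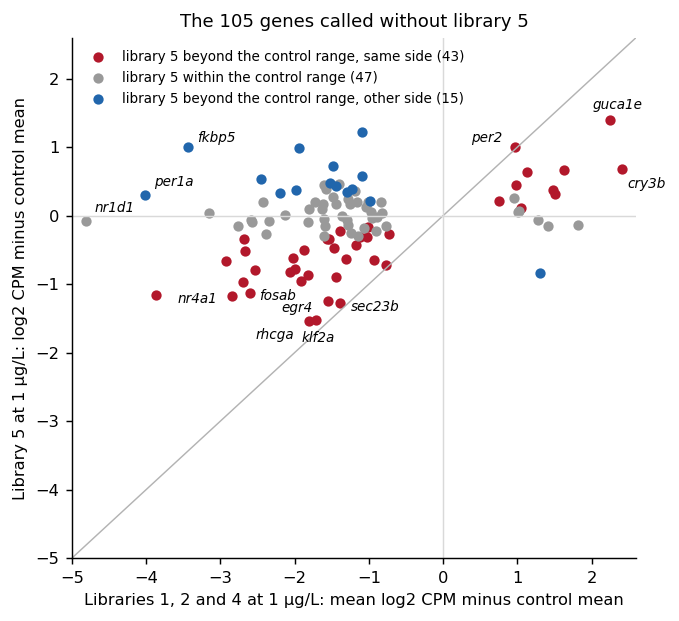
Each point is 1 of the 105 genes called without library 5; the horizontal axis is the mean log2 CPM of libraries 1, 2 and 4 at 1 µg/L minus the control mean, and the vertical axis is library 5 minus the control mean. The diagonal marks equal values, and points near the horizontal zero line, nr1d1 among them, are genes in which library 5 lay at the control level.

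Further genes outside the clock and immediate early lists passed without library 5 but not in the main edgeR fit. Of those named here, crtac1a (adjusted p = 0.00274), prxl2b (0.00998), hsp90aa1.2 (0.0293), psme4a and abcc1 (each 0.0487) were below 0.05 in the authors' deposited table. The others named here were not. nmrk2, a nicotinamide riboside kinase, was at 9.85, 20.3, 9.70 and 55.9 CPM in the exposed libraries, against 63.2, 78.5, 91.6 and 89.5 CPM in the control. psme4a, the proteasome activator known as PA200, was at 124, 117, 188 and 46.9 CPM in the exposed libraries, against 62.7, 44.6, 57.7 and 46.3 CPM in the control. Library 5 lay outside its group in both, just below the control range in nmrk2 and within it in psme4a. abcc1, a multidrug efflux pump, was at 54.0, 57.0, 53.0 and 28.1 CPM in the exposed libraries, against 23.9, 29.3, 26.8 and 28.3 CPM in the control. crtac1a, prxl2b, wdr76, med18 and yme1l1b were higher without library 5 at log2 fold changes of 1.52, 1.47, 1.80, 1.29 and 1.00. nfkbiab, an inhibitor of NF-kappa B, hsp90aa1.2, a cytosolic Hsp90, the heat shock factor gene hsf2 and rdh8b, a retinol dehydrogenase gene, were lower at -1.37, -1.12, -1.03 and -1.21.

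**Figure D4:**
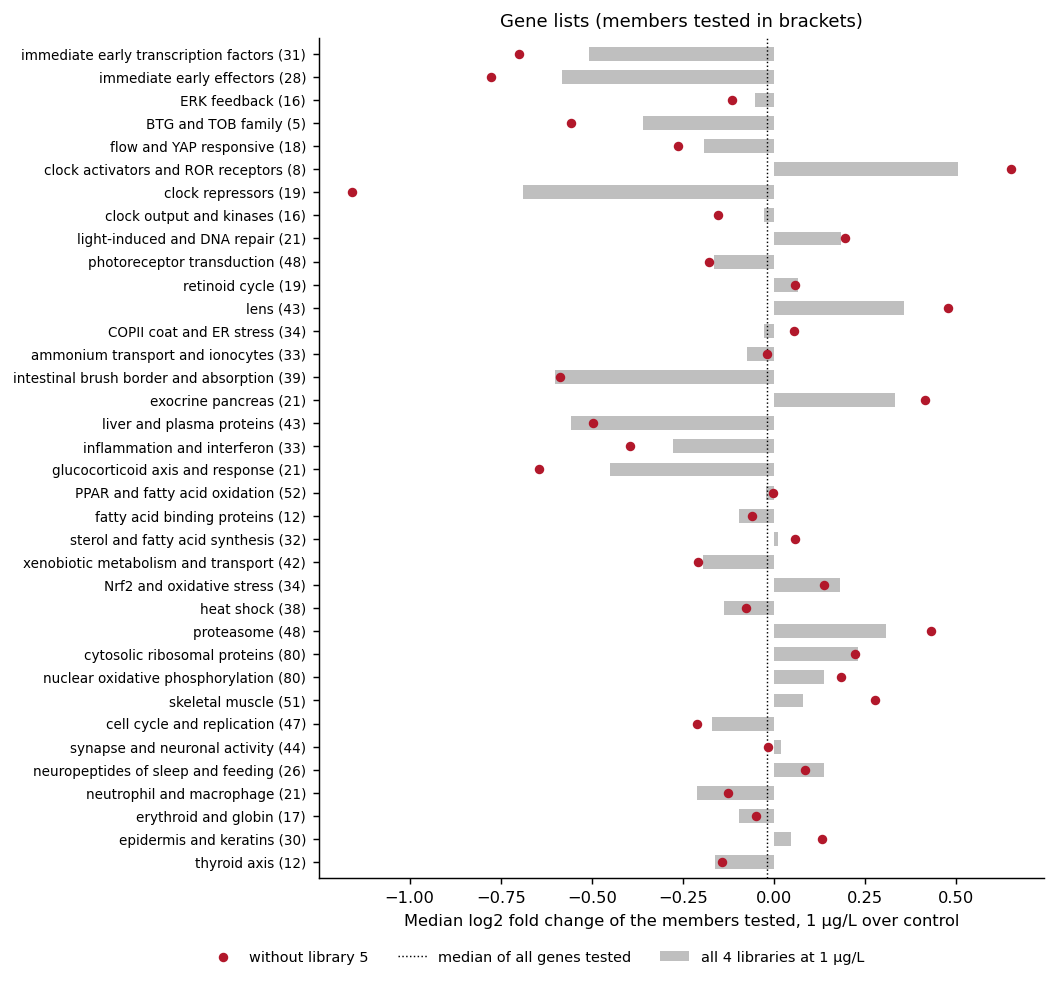
Bars give the median log2 fold change, 1 µg/L over control, of the tested members of each gene list with all libraries, and dots the same without library 5; the dotted line is the median of all genes tested. The immediate early and clock repressor lists lie lowest together with intestine and liver, and the clock activators highest.

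Of the 36 gene lists, 10 held a called gene and 26 held none. Over all genes 0.0681% were called, so a count of 0 in any of these lists, here and below, is near that share and says little. PFBA and related acids are known in mammals as activators of PPAR alpha. Of 52 tested PPAR and fatty acid oxidation genes 0 were called, 26 had a positive and 26 a negative log2 fold change, and the median was -0.02 as over all genes. pparaa, which encodes PPAR alpha, was at 29.7, 23.3, 28.1 and 23.6 CPM in the exposed libraries, against 29.9, 22.4, 22.4 and 27.3 CPM in the control. The groups overlapped throughout (log2 fold change 0.04, SE 0.21, adjusted p = 0.998 by edgeR). pparab was at 4.20 ± 1.17 CPM in exposed and 3.87 ± 1.37 CPM in control larvae, and pparda at 1.46 ± 0.60 and 1.16 ± 0.58 CPM (SD, n = 4 each). The targets cpt1aa and cpt1b, which encode carnitine palmitoyltransferases, were at log2 fold changes of -0.04 (SE 0.17) and 0.07 (SE 0.38). Beside them, fabp10a, the liver fatty acid binding protein, was at 258 ± 67.6 CPM in exposed and 272 ± 178 CPM in control larvae.

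Of 42 tested xenobiotic genes 0 were called, with a median of -0.20, and abcc1 rose without library 5. At an unadjusted p below 0.05, 6 were lower and 1 higher, beside 2.97% lower and 1.92% higher over all genes. In 5 of the 42 every exposed library lay below every control library, and in 0 above. Over all genes 5.45% did not overlap, both directions together. cyp1a, the aryl hydrocarbon receptor target, was at 6.51, 5.39, 7.08 and 5.58 CPM in the exposed libraries, against 9.34, 11.6, 9.21 and 4.18 CPM in the control (log2 fold change -0.48, SE 0.30, adjusted p = 0.998 by edgeR). Of 34 tested Nrf2 and oxidative stress genes 0 were called, with a median of 0.18. cat, which encodes catalase, was at 68.7, 66.0, 53.8 and 52.2 CPM in the exposed libraries, against 41.4, 52.4, 43.5 and 41.6 CPM in the control. The groups overlapped by 1 pair of libraries (log2 fold change 0.43, SE 0.14, adjusted p = 0.777 by edgeR). sod1 was at 0.31 (SE 0.27) and hmox1a, heme oxygenase, at 0.69 (SE 0.34), both with an edgeR adjusted p of 0.998. Of 12 tested thyroid axis genes 0 were called, and dio2, the deiodinase that activates thyroid hormone, was at 2.25, 4.06, 2.39 and 6.36 CPM in the exposed libraries, against 1.24, 1.26, 1.66 and 1.45 CPM in the control (log2 fold change 1.42, edgeR adjusted p = 0.354).

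The intestinal and liver lists had shifted medians, beside -0.02 over all genes, but no called gene. Among other organ lists, the median was 0.33 for exocrine pancreas, 0.08 for skeletal muscle, 0.05 for epidermis and -0.10 for erythroid genes. The share of all genes with each sign was not computed. Of 39 tested intestinal brush border genes 32 had a negative log2 fold change, with a median of -0.60, and of 43 liver and plasma protein genes 40, with a median of -0.56. Their summed levels overlapped, at 903 to 2226 CPM in the exposed and 642 to 2488 CPM in the control libraries for intestine, and at 1446 to 2143 and 1148 to 3003 CPM for liver. At an unadjusted p below 0.05, 11 intestinal and 4 liver genes were lower and 0 higher. Over all genes 2.97% were lower and 1.92% higher. hp, the plasma protein haptoglobin, was at 2.71, 4.06, 2.62 and 3.93 CPM in the exposed libraries, against 14.4, 15.2, 8.17 and 3.05 CPM in the control (log2 fold change -1.61, edgeR adjusted p = 0.780). Control library 5 lay with the exposed libraries in hp. lct, the brush border lactase, was at 0.0775, 0.283, 0.318 and 0.864 CPM in the exposed libraries, against 2.93, 3.93, 1.18 and 1.77 CPM in the control, without overlap (edgeR adjusted p = 0.537). In the authors' deposited table lct (adjusted p = 0.0174) and hp (0.0394) were below 0.05.

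In the opposite direction, 39 of 43 tested lens genes, 44 of 48 proteasome genes and 74 of 80 cytosolic ribosomal protein genes had a positive log2 fold change. Their medians were 0.36, 0.31 and 0.23, beside -0.02 over all genes, and 0 were called in each. The summed levels overlapped for lens and proteasome. For ribosomal proteins the sum was 108886 to 125288 CPM in the exposed libraries, above 88581 to 105655 CPM in the control. In 23 of these 80 genes every exposed library lay above every control library, and in 0 below. Over all genes 5.45% did not overlap, both directions together. Members of such a list vary together within a library, so these shares are not counts of separate results. sdha, a subunit of succinate dehydrogenase, was at 391, 359, 418 and 227 CPM in the exposed libraries, against 216, 225, 192 and 169 CPM in the control (log2 fold change 0.80, edgeR adjusted p = 0.540), and was among 64 of 80 oxidative phosphorylation genes with a positive value. Synapse, neuropeptide and leukocyte lists held 0 called genes, with medians of 0.02, 0.14 and -0.21.

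The other doses were set beside 1 µg/L. At 10 µg/L, 43 genes (0.225%) were called, and at 0.1 µg/L 0 were called by edgeR, with 4157 (21.8%) at an unadjusted p below 0.05. Of the 13 genes called at 1 µg/L, 7 were called at 10 µg/L and 0 at 0.1 µg/L. All these comparisons share the control libraries, so each gene's own values are given.

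egr4 averaged 90.5 ± 3.50 CPM at 0.1 µg/L (n = 3), 46.7 ± 6.42 CPM at 1 µg/L (n = 4) and 75.1 ± 4.35 CPM at 10 µg/L (n = 5), against 131 ± 26.7 CPM in the control (SD, n = 4). per2 averaged 102 ± 6.47, 246 ± 24.9 and 169 ± 13.9 CPM at 0.1, 1 and 10 µg/L, against 126 ± 15.5 CPM in the control. In both genes the level at 1 µg/L was farthest from the control. Both were named because they were called at 1 µg/L, which favours that dose. The mean at 0.1 µg/L includes libraries 1 and 2, with scaling factors of 0.58 and 0.74. npas4a averaged 207 ± 45.0, 73.8 ± 54.3 and 174 ± 20.6 CPM at these doses, against 310 ± 75.6 CPM in the control. cry5 averaged 11.3 ± 1.33, 23.6 ± 3.78 and 12.7 ± 2.77 CPM, against 11.5 ± 1.39 CPM in the control. sec23b averaged 60.0 ± 12.5, 21.2 ± 2.73 and 32.2 ± 3.93 CPM, against 54.8 ± 8.51 CPM. nr4a1, ccn1 and cry3b had like log2 fold changes at 1 and 10 µg/L, of -2.21 and -2.66, of -1.31 and -1.29, and of 2.10 and 2.51. guca1e was at 2.09 and 2.94.

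The direct comparison of 1 with 10 µg/L called 0 genes by edgeR, with 550 (2.88%) at an unadjusted p below 0.05. egr4 was lower at 1 µg/L by a log2 difference of -0.69 (SE 0.14, adjusted p = 0.817 by edgeR), cry5 was at 0.90 (SE 0.20, 0.902), per2 at 0.54 (SE 0.12, 0.902) and npas4a at -1.23 (SE 0.32, adjusted p of 1). None of these differences passed. Without library 5, 1 gene of 19026 (0.00526%) was called between these doses, npas4a, with a log2 difference of -1.90 (SE 0.20, adjusted p = 0.00140 by edgeR). Its levels were 45.5, 50.6 and 43.9 CPM in libraries 1, 2 and 4 at 1 µg/L, against 157 to 206 CPM in the 5 libraries at 10 µg/L.

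nr1d1 was at 546 to 657 CPM in the libraries at 0.1 µg/L and at 29.9 to 52.3 CPM in those at 10 µg/L. So libraries 1, 2 and 4 at 1 µg/L lay below the 10 µg/L range and library 5 lay inside the 0.1 µg/L range. fkbp5 was at 229 to 292 CPM at 0.1 µg/L and 35.6 to 51.6 CPM at 10 µg/L, with the same arrangement apart from library 5, which exceeded every library at 0.1 µg/L.

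**Figure D5:**
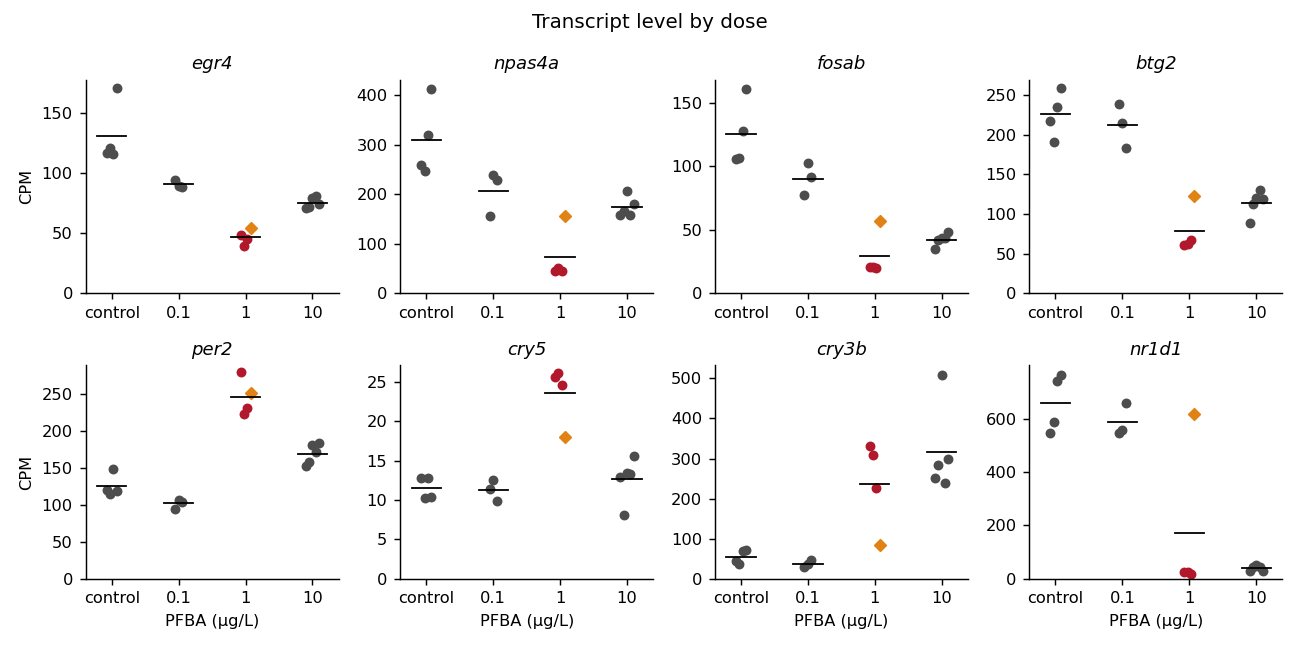
CPM on linear axes from 0 for 8 genes, 1 point per library and a bar at the group mean, for the control and PFBA at 0.1, 1 and 10 µg/L. Points at 1 µg/L are coloured, with library 5 as a diamond, and egr4 and per2 are farthest from the control at 1 µg/L while nr1d1 is low in all 10 µg/L libraries and in all but 1 library at 1 µg/L.

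In the authors' deposited table for 1 µg/L, 112 of 25272 genes (0.443%) had an adjusted p below 0.05, 42 higher and 70 lower, and these included all 13 genes called here. Of the 105 genes called without library 5, 36 were among them. The authors' deposited table gave nr1d1 a log2 fold change of -1.93 with an adjusted p of 1, and guca1e 2.10 with 1.98e-12.

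Some called genes lie close together in GRCz11, the build in the submitters' processing notes. egr4 lies on chromosome 23 at 45579497 to 45581626 and ccn1 on the same chromosome at 45456490 to 45465320, both on the plus strand. These 2 genes and those between them make 7 tested genes over 125137 bases, 2 of them called. btg2 (336256 to 339623), cry3b (786556 to 809282) and guca1e (1092479 to 1109547) lie on the plus strand of chromosome 22. That stretch of 773292 bases held 39 tested genes, 3 of them called and 6 at an unadjusted p below 0.05, and cry4 joined them without library 5. The stretches were drawn around the called genes, so these counts are a description. per2 lies on chromosome 2 at 48309600 to 48375342 and sec23b on chromosome 6 at 6779114 to 6796687.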

How the data were processed

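RNA was extracted from larvae with TRIzol, and polyadenylated RNA was made into strand-specific (dUTP) libraries for Illumina sequencing, per the labels' protocols. Per the submitters' processing notes, fastp, HISAT2, featureCounts and DESeq2 were used with genome build GRCz11, without versions. The strand setting of the counting is not given in the sources used here; overlapping genes and near-identical paralogs have less certain values. The authors deposited raw counts per gene and library, 1 table per dose with the same control columns. Their deposited tables also hold log2 fold changes and p-values of their own test, which are quoted only where named. A further 54 columns of normalized and per-length values by library or group were not used.

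The tables were joined into 26183 genes, and 10528 cells of genes missing from a table were set to a count of 0. The control counts were identical across tables. Column numbers do not match the sample titles, so columns were assigned to groups only, by their names. Counts were filtered with filterByExpr, scaled with TMM and tested with edgeR 4.0.16 (R 4.3.3) in a single model over the 16 libraries (12 residual degrees of freedom), with Benjamini-Hochberg adjustment over 19092 genes and a threshold of 0.05. CPM used TMM-scaled library sizes, and each SE came from the F statistic. DESeq2 1.42.0 and limma 3.58.1 gave alternatives. The test was checked on simulated counts.

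The genes, the 36 gene lists (1230 of 1334 symbols matched) and the comparison were chosen with earlier results of these data known. Named genes were those called, those called without library 5 (the 12 with the largest rise and fall, and list members), up to 4 of lowest p per list, 10 next below the threshold and a set of PPAR, stress and clock genes, of which 1 is not reported here. Lists were counted, with no set test. Promoter motifs were not analysed here.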

Additional observations from a re-analysis of the deposited data

Results flagged for a closer look

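In the 92 genes named in the text, each group of 4 libraries was examined for 1 library far from the other 3, which gave 42 of 184 groups. Library 5 at 1 µg/L was the one set apart in 36 of them. Chance gives about 1 in 20 groups, but many of these genes were named because they passed without library 5, so the count cannot be read against that rate. Among clock genes it was at 617 CPM in nr1d1, 552 in nr1d2a, 732 in nr1d2b, 91.7 in per1a, 502 in per1b, 469 in per3, 276 in ciarta, 100.1 in bhlhe41, 104 in dbpb and 162 in nfil3-6. Each of these lay above the other exposed libraries.

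Among immediate early and signalling genes it was at 123 CPM in btg2, 56.6 in fosab, 155 in npas4a, 18.4 in ccn1, 79.4 in junbb, 56.9 in ier2a, 163 in sik1, 16.5 in dusp5, 417 in tob1a, 168 in nfkbiab, 118 in ddit4 and 438 in fkbp5. Among photoreceptor and retinoid genes it was at 110.5 CPM in guca1c, 6.44 in guca1a, 33.9 in cnga3a, 41.1 in pde6ga, 659 in grk7a and 91.8 in rdh8b. It was also the highest exposed library in gpr186 (50.8 CPM), dhrs13a.2 (9.51), hsp90aa1.2 (132), hsf2 (102) and prlra (105). It was the lowest in cpdp (43.4 CPM), abcc1 (28.1) and yme1l1b (13.9).

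The remaining 6 flags concern other libraries. Control library 5 was the highest control in egr4 (171 CPM) and dusp6 (95.0 CPM), control library 4 in per2 (149 CPM) and mylpfa (0.623 CPM), and control library 1 in klf2a (18.5 CPM). Library 1 at 1 µg/L was the lowest exposed library in tcap (1.78 CPM).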

How the results depend on the processing

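The 13 calls became 61 with DESeq2, 22 with limma-voom, 6 with library size only (0 higher), 6 with the compared groups alone and 6 with a replicate block on the column number (0 higher). They were 5 to 105 when 1 library of the compared groups was left out, with 105 without library 5 at 1 µg/L and at most 8 otherwise. 2 alternatives were added after seeing the data. Without library 5 the compared groups alone gave 183 calls and DESeq2 252, each with all 13 genes. The other 5 planned settings gave 10 to 15 calls. The correlation of deviations between same-numbered libraries was 0.09, -0.27 and 0.29 for numbers 1, 4 and 5. Differently numbered libraries were not set beside these, so they cannot show whether the numbers pair the samples. egr4 and sec23b kept their call throughout, and egr4, sec23b, per2, btg2 and fosab in all 8 fits with 1 library left out. The compared groups alone ended the calls of fosab (edgeR adjusted p = 0.207), btg2 (0.0570), nr4a1 (0.216), npas4a (0.327), ccn1 (0.0570), cry3b (0.310) and dusp6 (0.138). With library size only, npas4a (0.141), rhcga (0.186), ccn1 (0.0595) and, each at 0.228, per2, guca1e, cry3b and dusp6 did not pass. The replicate block ended those of per2 (0.0539), guca1e (0.0799), rhcga (0.172), ccn1 and cry3b (each 0.277), dusp6 (0.110) and klf2a (0.168). No filter on low counts ended those of cry3b (0.0524), dusp6 (0.0540) and klf2a (0.0545), and klf2a was also lost with DESeq2 size factors (0.0628) and limma-voom (0.102). Leaving out the 0.1 µg/L group, or only libraries 1 and 2 of it, ended those of npas4a (0.0677 and 0.0749) and cry3b (0.0868 and 0.104). The cause was not tested.

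Of 92 genes followed, the sign turned only in genes that were not called. pparaa turned to -0.017 with library size only and ran from -0.025 to 0.126 with 1 library left out, and pparab from -0.073 to 0.277. cpt1aa turned to 0.0079 with the replicate block and ran from -0.111 to 0.0574 with 1 library left out. cpt1b ran from -0.161 to 0.392 with 1 library left out, and turned to -0.149 in the compared groups alone without library 5 and to -0.126 by DESeq2 without it. fabp10a turned to 0.194 with limma-voom, to 0.0273 in the compared groups alone without library 5 and to 0.0537 by DESeq2 without it, and ran from -0.389 to 0.318 with 1 library left out. At these depths, genes near 1 CPM have few reads, so their absence from the calls says little.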

Other observations

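Genes of cell division were mostly lower without passing. Of 47 tested cell cycle and replication genes 35 had a negative log2 fold change and 0 were called. The list median was -0.17, beside -0.02 over all genes. mcm6, a subunit of the replicative helicase, was at 5.82, 11.0, 7.40 and 16.5 CPM in the exposed libraries, against 22.6, 30.7, 21.4 and 10.1 CPM in the control (edgeR adjusted p = 0.720). Control library 5 lay within the exposed range. Of 33 tested inflammation and interferon genes 25 were negative and 0 were called, with a median of -0.28, and nfkbiaa was at -0.82 (edgeR adjusted p = 0.449). At an unadjusted p below 0.05, 9 were lower and 0 higher, beside 2.97% lower and 1.92% higher over all genes. The list sum was 464 to 818 CPM in the exposed libraries, below 843 to 969 CPM in the control. Without library 5, 2 members fell and 0 rose, beside 0.457% lower and 0.0946% higher calls over all genes.

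Some genes with a large log2 fold change did not pass in edgeR. In the authors' deposited table nfil3-5 (adjusted p = 0.000685), neurod1 (0.0188) and mylpfa (0.00217) were below 0.05, and fbxl3l (0.185) was not. Other genes that did not pass in the main edgeR fit were below 0.05 there too, among them rorcb (0.00177), sdha (0.0241) and tcap (0.000831). nfil3-5, of the NFIL3 family, was at 16.0, 14.6, 14.9 and 7.94 CPM in the exposed libraries, against 5.48, 5.04, 5.05 and 6.18 CPM in the control (edgeR adjusted p = 0.520), without overlap. fbxl3l, an F-box gene, was at 9.69, 7.75, 6.04 and 2.20 CPM against 1.85, 1.71, 2.49 and 4.26 CPM in the control (0.856). neurod1, a neuronal differentiation factor, was at 695, 677, 570.2 and 463 CPM against 309.8, 342, 387 and 424 CPM in the control (0.606). mylpfa, the fast muscle myosin light chain gene, ranged from 0.318 to 39.1 CPM in the exposed libraries, against 0.0742 to 0.623 CPM in the control, while the summed level of 51 skeletal muscle genes overlapped at 31611 to 92476 and 19735 to 79343 CPM. Reads of near-identical myosin genes can be split between copies, so its level is uncertain.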
